A study of Mus musculus with 32 samples.

Results

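Nodal, its coreceptor Tdgf1 (Cripto), the receptors Acvr1b and Acvr2b, the transcription factor Smad3 and the negative regulators Lefty1, Lefty2, Smad7 and Skil were followed in mouse embryonic stem cells that left the ground state. These 9 genes were taken by name, as a ligand, its receptor complex, its signal transducer and its inhibitors, out of 31053 genes in the count files. All 9 were among the 12556 genes with enough counts to be tested.

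The cells were E14, an established mouse embryonic stem cell line, grown on gelatin in serum-free N2B27 medium. The 2i medium adds 3 µM of the GSK3 inhibitor CHIR99021 and 1 µM of the MEK inhibitor PD0325901, and 2iL adds the cytokine LIF to both. One day after plating at single-cell density the additions were taken away and the cells were kept in N2B27 alone. RNA with poly(A) tails was read from the 3′ end of transcripts, so a count stands for a tag near the end of a messenger RNA. The 2iL course was sampled at 0 h (still in 2iL) and at 24, 36, 48, 60, 72, 84 and 96 h after withdrawal. The 2i course was sampled at 0 h (still in 2i) and at 12, 24, 36, 48, 60, 72 and 84 h. The 2iL course therefore lost LIF as well as both inhibitors, and the 2i course lost the inhibitors only. Each of the 16 groups had 2 libraries, of 1 cell line with no genetic change named.

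Nodal is a secreted ligand of the TGF-beta family that is cleaved by proprotein convertases and binds type I and type II activin receptors together with the coreceptor Tdgf1. The receptors phosphorylate Smad2 and Smad3, which enter the nucleus with Smad4 and act with partners such as Foxh1. The pathway switches on its own inhibitors, the secreted Lefty proteins and intracellular Smad7, and in the mouse embryo it maintains the epiblast, patterns it and induces mesendoderm.

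Sequence upstream of Nodal and Tdgf1 is shown because these 2 genes make the ligand and its coreceptor and because their levels fell in both courses. Each sequence is the 250 bases before the gene's start in the RefSeq table for GRCm38.p6, the assembly behind mm10, written 5′ to 3′ on the gene's strand. Nodal's lies at chr10:61417722-61417971 on the plus strand, and Tdgf1's lies at chr9:110946159-110946408 on the minus strand. Capitals mark matches to the letters TGTNNATT (the FOXH1 motif, read here on the other strand as AATTTACA) and CAGAC (the SMAD box).
Nodal: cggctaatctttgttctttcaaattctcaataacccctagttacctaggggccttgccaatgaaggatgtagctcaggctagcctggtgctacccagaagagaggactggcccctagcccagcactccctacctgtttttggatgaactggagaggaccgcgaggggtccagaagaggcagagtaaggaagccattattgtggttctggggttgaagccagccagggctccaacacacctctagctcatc
Tdgf1: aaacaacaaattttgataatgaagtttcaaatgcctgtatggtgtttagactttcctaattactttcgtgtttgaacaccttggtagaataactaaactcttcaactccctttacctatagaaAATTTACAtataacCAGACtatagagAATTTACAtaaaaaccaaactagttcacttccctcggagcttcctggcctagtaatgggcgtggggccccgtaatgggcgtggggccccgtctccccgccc
The Tdgf1 window held 2 FOXH1 matches, which begin at bases 124 and 150 of the printed sequence, on either side of 1 SMAD box at base 138. These 3 matches do not overlap. On both strands of the 32851 windows of 300 bases in the table, the FOXH1 letters occurred in 12.2% and the SMAD box in 49.6%. The Nodal window held neither, nor the TCF/LEF letters CTTTGA (16% of windows) or the octamer core ATGCAAA (4.63%), and the Tdgf1 window held no match to these last 2. RefSeq entries were at hand for 5 of the 9 genes. Of the other 3, Acvr2b had 1 SMAD box and Acvr1b and Smad3 had no match. Lefty1, Lefty2, Smad7 and Skil are named only.

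The 31 libraries used held 1122648 to 3438514 counts each. The second 2iL 36 h library held 7298 counts, with 1 for Tdgf1, 1 for Acvr2b and 0 for the other members, and was left out, so that 2iL at 36 h is 1 library assumed to vary like the rest. All levels are CPM, counts scaled to a library total of 1000000 with TMM factors. On this scale 3 counts, the limit that a count of 0 allows, correspond to 0.989 to 2.94 CPM in 1 library. These limits cover counting error only. The 12 embryonic stem cell markers were detected in every group, and their summed level lay at 1025 to 1074 CPM at 96 h, against 3746 to 3955 CPM at 0 h, in the 2iL course. In the 2i course the same sum lay at 815 to 826 CPM at 84 h, against 2937 to 3077 CPM at 0 h. Lin28a went the other way, with 344 CPM at 96 h of 2iL withdrawal against 77.1 CPM at 0 h. In the 2i course Lin28a had 309 CPM at 84 h, against 110 CPM at 0 h. Lin28a and Sox2 (307 CPM at 96 h and 295 CPM at 84 h) carried most of these late sums. In the test described below, 1 marker was higher and 9 were lower at 96 h, and 1 and 11 at 84 h. In these bulk samples, fewer cells of a type and less RNA per cell cannot be told apart. The labels do not say that the 2 libraries of a group came from separate cultures, so p-values measure the spread between these libraries, which may be technical. Time since withdrawal also cannot be told apart from time since plating.

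Changes were tested with edgeR's quasi-likelihood test, with Benjamini-Hochberg adjustment over all 12556 genes, and a gene was called at an adjusted p under 0.05. Over all times of a course taken jointly, 8 of the 9 genes changed after 2i withdrawal, where 52.3% of all tested genes did, and 8 after 2iL withdrawal, where 56.5% did. Acvr1b was the gene not called in either course. The 2 courses differed jointly at their shared times for 7 of the 9, where 22.5% of all genes differed. At the first time sampled, 4 genes had fallen and 0 had risen after 2i withdrawal (12 h), where 5.37% of all genes were lower and 5.43% higher; Nodal, 1 of the 4, was called under 2 of 11 alternatives. After 2iL withdrawal (24 h) it was likewise 4 lower and 0 higher, where 5.92% of all genes were lower and 5.65% higher; Acvr2b, 1 of the 4, was called under 5 of 11 alternatives. The median log2 change of the 9 genes was -0.41 at 12 h of 2i withdrawal, against -0.02 over all genes, and -0.67 at 24 h of 2iL withdrawal, against -0.03. At the last time, 2 had risen and 6 had fallen in the 2i course (84 h; 16.6% and 16.6% of all genes), and 2 had risen and 5 had fallen in the 2iL course (96 h; 19.5% and 20.1%). Between these times the number called, in either direction, was 5 at 24 h of 2i withdrawal (17.3% of all genes), 5 at 36 h (17.5%), 6 at 48 h (20.2%), 7 at 60 h (24.1%) and 8 at 72 h (28.2%). After 2iL withdrawal it was 4 at 36 h (10.8%), 7 at 48 h (29.1%), 8 at 60 h (27.7%), 8 at 72 h (28.8%) and 7 at 84 h (34.8%). The share of members called was thus above that of all genes at each time. Comparisons within a course share its 0 h libraries, and the members were chosen for their roles with earlier results of these data known.

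**Figure D1:**
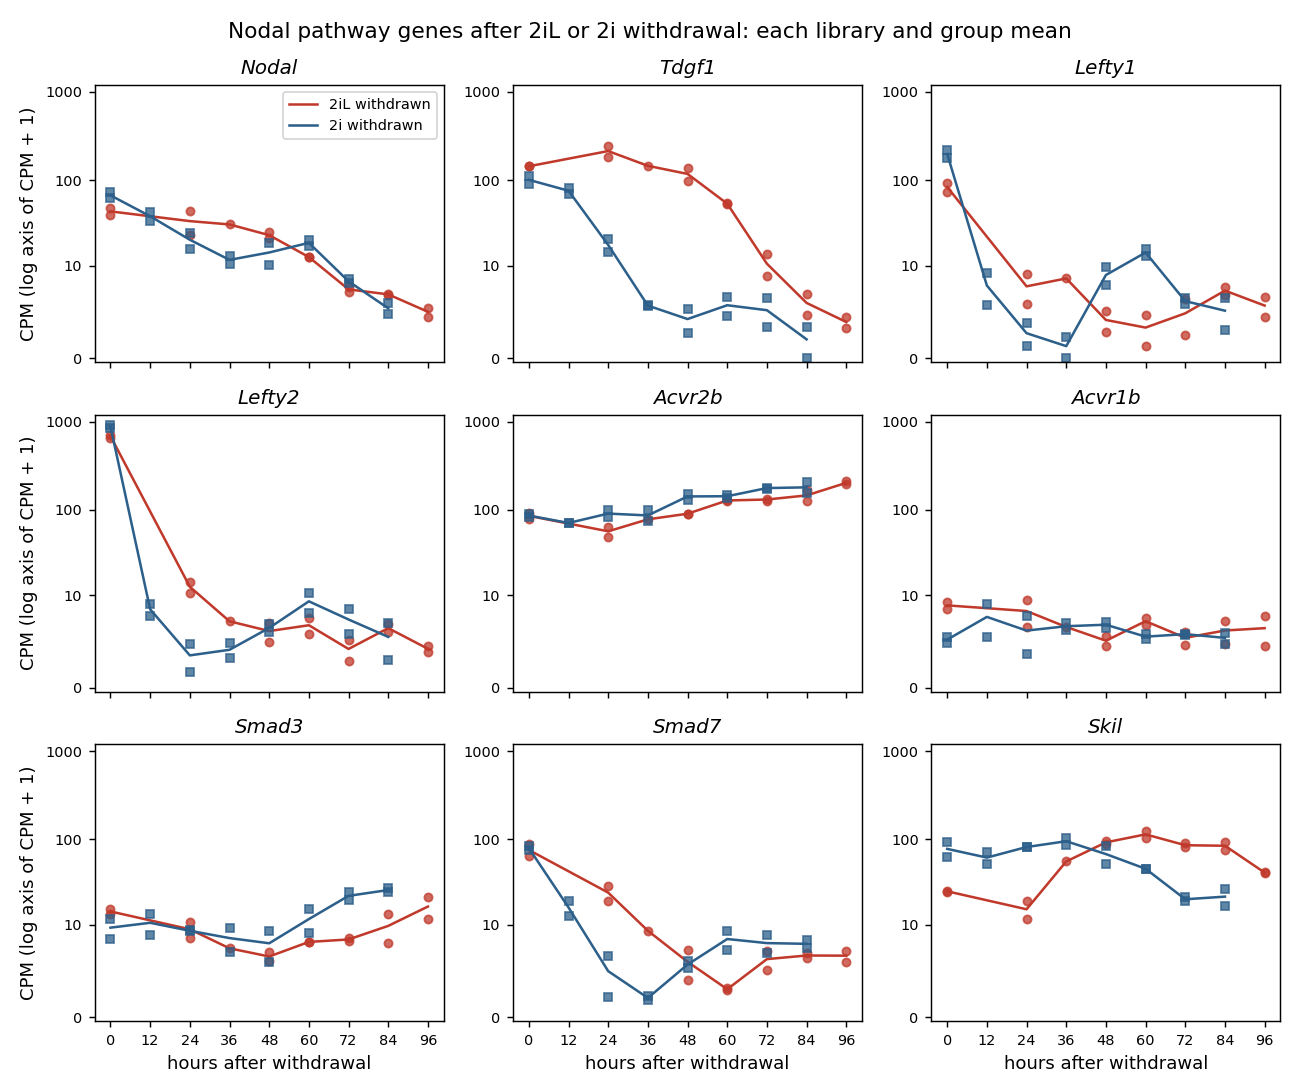
Level of each of the 9 genes (CPM, on a log axis of CPM + 1) against hours after withdrawal; points are single libraries and lines join the group means of the 2iL and the 2i course. Lefty1, Lefty2 and Smad7 drop at the first time sampled, Nodal and Tdgf1 decline later and further apart between courses, Acvr2b climbs, and Skil takes opposite paths.

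The inhibitors and the ligand with its coreceptor moved on different schedules. Lefty1, Lefty2 and Smad7, inhibitors of the pathway and among its known targets, lost most of their RNA by the first time sampled. Nodal and Tdgf1 still had 57.5% and 75.1% of their 0 h means at 12 h of 2i withdrawal, and 77.2% and 149% at 24 h of 2iL withdrawal, and both fell by the last time of each course. Skil, a nuclear repressor of Smad proteins, rose after 2iL withdrawal and fell late after 2i withdrawal, and the type II receptor Acvr2b rose late in both.

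Lefty2 (ENSMUSG00000066652, chromosome 1, 180893108 to 180899103, plus strand) encodes a secreted antagonist that binds Nodal and its coreceptors. Lefty2 in the 2iL course had 658 and 709 CPM at 0 h, 10.8 and 14.6 CPM at 24 h, 4.62 CPM at 36 h, 2.31 and 4.41 CPM at 48 h, 3.00 and 5.13 CPM at 60 h, 2.45 and 1.03 CPM at 72 h, 4.17 and 3.23 CPM at 84 h, and 1.95 and 1.56 CPM at 96 h. Lefty2 in the 2i course had 911 and 846 CPM at 0 h, 5.49 and 7.84 CPM at 12 h, 0.490 and 2.15 CPM at 24 h, 1.15 and 2.21 CPM at 36 h, 3.23 and 4.22 CPM at 48 h, 10.8 and 6.0 CPM at 60 h, 3.07 and 6.70 CPM at 72 h, and 4.42 and 1.07 CPM at 84 h. No library taken after withdrawal came near the 0 h libraries of its course. The mean at 12 h of 2i withdrawal was 0.759% of the 0 h mean, and the mean at 24 h of 2iL withdrawal was 1.86% of it. The log2 change was -7.07 ± 0.31 at 12 h of 2i withdrawal (SE, n = 2 per group; edgeR adjusted p = 1.6e-16) and -5.76 ± 0.28 at 24 h of 2iL withdrawal (edgeR adjusted p = 2.2e-15). The loss lasted to the end, with -8.59 ± 0.34 at 96 h in the 2iL course (edgeR adjusted p = 7.4e-18). Both 2i libraries at 60 h lay above both at 48 h, but that step of 1.16 ± 0.45 did not pass (edgeR adjusted p = 0.30; 0.948% of all genes were called between these times).

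Lefty1 (ENSMUSG00000038793, chromosome 1, 180935022 to 180938400, plus strand) is the neighbouring gene for a second secreted Nodal antagonist. The coding sequences of Lefty1 and Lefty2 are 91.9% identical, with a longest shared run of 140 bases, so that tags within them may be divided between the genes in an unknown way. The sequences after the coding part, where 3′ tags are placed, had 425 bases in Lefty1 and 1290 in Lefty2. Aligned, they shared 321 identical bases, 24.9% of the longer sequence, with no shared run over 13 bases. The difference in length limits this percentage. Lefty1 in the 2iL course had 74.5 and 93.5 CPM at 0 h, 3.09 and 7.81 CPM at 24 h, 6.92 CPM at 36 h, 0.989 and 2.41 CPM at 48 h, 0.376 and 2.05 CPM at 60 h, 0.816 and 3.59 CPM at 72 h, 4.17 and 5.39 CPM at 84 h, and 1.95 and 3.89 CPM at 96 h. Lefty1 in the 2i course had 218 and 180.2 CPM at 0 h, 8.23 and 2.94 CPM at 12 h, 1.47 and 0.358 CPM at 24 h, 0 and 0.736 CPM at 36 h, 9.69 and 5.63 CPM at 48 h, 13 and 16 CPM at 60 h, 3.07 and 3.72 CPM at 72 h, and 3.79 and 1.07 CPM at 84 h. The fall at the first time sampled was steep in both courses, and the 2i libraries at 48 and 60 h stood above those at 24 and 36 h. The log2 change was -5.04 ± 0.40 at 12 h of 2i withdrawal (edgeR adjusted p = 1.9e-10; -6.05 without the first 12 h library) and -3.99 ± 0.43 at 24 h of 2iL withdrawal (edgeR adjusted p = 6.3e-08; -4.73 without the second 24 h library).

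At 36 h of 2i withdrawal Lefty1 was down to 1 count, against 877 counts at 0 h, so the 0 h level was 625 times the 36 h level (95% counting interval 112 to 24710). At 48 h Lefty1 had 27 counts, against that 1 count at 36 h, a ratio of 22.7 (95% counting interval 3.74 to 929; edgeR adjusted p = 0.015; 1.82% of all genes were called between these times). This return was not called without the first 48 h library (adjusted p = 0.13), without the first 36 h library (adjusted p = 0.27) or without the second (adjusted p = 0.062), nor by DESeq2 (adjusted p = 0.079). The 60 h level was 7.29% of the 0 h mean, a log2 change of -3.78 ± 0.32 (edgeR adjusted p = 1.7e-10). Primitive streak and mesendoderm markers, 8 genes, summed to 44.5 to 46.9 CPM at 0 h of the 2i course, with Gsc at 0. They summed to 8.08 to 8.83 CPM at 36 h, with Fgf8 and Evx1 at 0. At 48 h the sum was 13.6 to 18.1 CPM and at 60 h it was 57.7 to 58.5 CPM, with Mesp1 at 0 at both times. Mixl1 and Mesp1 did not rise, with 2 counts each at 36 h and 2 and 0 counts at 60 h. The part of these markers in the Lefty1 values was not tested.

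Smad7 (ENSMUSG00000025880, chromosome 18, 75367529 to 75395935, plus strand) encodes the inhibitory Smad that blocks type I receptors. Smad7 in the 2iL course had 87.8 and 64.2 CPM at 0 h, 29.4 and 19.5 CPM at 24 h, 8.46 CPM at 36 h, 1.65 and 4.81 CPM at 48 h, 1.13 and 1.03 CPM at 60 h, 2.45 and 4.62 CPM at 72 h, 3.65 and 4.31 CPM at 84 h, and 3.25 and 4.67 CPM at 96 h. Smad7 in the 2i course had 83.4 and 76.4 CPM at 0 h, 13 and 19.6 CPM at 12 h, 3.92 and 0.716 CPM at 24 h, 0.577 and 0.736 CPM at 36 h, 2.58 and 3.28 CPM at 48 h, 4.77 and 8.50 CPM at 60 h, 4.30 and 7.44 CPM at 72 h, and 5.05 and 6.44 CPM at 84 h. Both courses started at overlapping levels and ended at a few CPM, and the lowest point came at 36 h after 2i withdrawal and at 60 h after 2iL withdrawal. The log2 change was -2.32 ± 0.34 at 12 h of 2i withdrawal (edgeR adjusted p = 1.5e-05) and -1.62 ± 0.32 at 24 h of 2iL withdrawal (edgeR adjusted p = 0.00063). At 36 h of 2i withdrawal 2 counts stood against 349 at 0 h, so the 0 h level was 124 times the 36 h level (95% counting interval 34.2 to 1031). At 60 h of 2iL withdrawal the log2 change was -6.05 ± 0.46 (edgeR adjusted p = 1.1e-11), and at 96 h it was -4.19 ± 0.38 (edgeR adjusted p = 3e-10).

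At both first times the tag count of Gm42418, a gene of high and variable count in these libraries, also stood out. It took 29.3% and 36.7% of counts at 12 h of 2i withdrawal, against 14% and 16.1% at 0 h. At 24 h of 2iL withdrawal it took 23.9% and 24.7%, against 8.86% and 10.4% at 0 h. The streak markers also summed to less at these times, at 2.94 to 6.18 CPM after 12 h of 2i withdrawal, against 44.5 to 46.9 CPM at 0 h, with T, Mixl1, Gsc, Fgf8 and Mesp1 at 0. At 24 h of 2iL withdrawal they summed to 3.91 to 7.73 CPM, against 20 to 25.2 CPM at 0 h, with T, Gsc, Fgf8, Mesp1 and Wnt3 at 0. Trophoblast markers, 6 genes, summed to 21.6 to 22 CPM at 12 h of 2i withdrawal with Cdx2 and Elf5 at 0, against 215 to 235 CPM at 0 h. At 24 h of 2iL withdrawal they summed to 32.2 to 34 CPM with Elf5, Krt7 and Hand1 at 0, against 169 to 177 CPM at 0 h. Tfap2c carried most of the sums at 0 h of both courses and at 24 h of 2iL withdrawal. Tfap2c had 5.88 CPM at 12 h of 2i withdrawal against 209.7 CPM at 0 h. At 24 h of 2iL withdrawal it had 26.7 CPM, against 168 CPM at 0 h. Gata3 went the other way, with 15 CPM at 12 h of 2i withdrawal against 3.42 CPM at 0 h, and carried most of that 12 h sum. Of the 3 trophoblast markers tested at 12 h of 2i withdrawal, 1 was higher and 2 were lower. The part of these values in the early falls was not tested.

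Nodal (ENSMUSG00000037171, chromosome 10, 61417972 to 61425338, plus strand) is the ligand itself. Nodal in the 2iL course had 40.4 and 47.8 CPM at 0 h, 23.2 and 44.9 CPM at 24 h, 31.2 CPM at 36 h, 21.4 and 25.3 CPM at 48 h, 12.8 and 12.8 CPM at 60 h, 5.31 and 4.62 CPM at 72 h, 4.17 and 4.31 CPM at 84 h, and 1.95 and 2.72 CPM at 96 h. Nodal in the 2i course had 72.7 and 62.1 CPM at 0 h, 43.2 and 34.3 CPM at 12 h, 16.2 and 25.1 CPM at 24 h, 10.4 and 13.2 CPM at 36 h, 18.7 and 10.3 CPM at 48 h, 20.4 and 17.5 CPM at 60 h, 6.75 and 5.95 CPM at 72 h, and 3.16 and 2.15 CPM at 84 h. The 2iL values overlapped 0 h at 24 h and lay below it from 36 h on, whereas every 2i group lay below its 0 h libraries. After 2i withdrawal the log2 change was -1.69 ± 0.26 at 24 h (edgeR adjusted p = 1.2e-05), -2.52 ± 0.30 at 36 h (edgeR adjusted p = 1.5e-07) and -4.66 ± 0.38 at 84 h (edgeR adjusted p = 3.4e-11). The level at 60 h was 28.1% of the 0 h mean and that at 36 h was 17.5% of it, and the step from 48 to 60 h, 0.43 ± 0.31, did not pass (edgeR adjusted p = 0.70).

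The first change of Nodal after 2i withdrawal, -0.79 ± 0.26 at 12 h, passed narrowly (edgeR adjusted p = 0.047). It was not called when the first or the second 0 h library was left out (adjusted p = 0.25 and 0.080), nor without the first or the second 12 h library (adjusted p = 0.085 and 0.27). It was also lost with RLE scaling (adjusted p = 0.057), with no low-count filter (adjusted p = 0.056), with a replicate block (adjusted p = 0.052), with DESeq2 (adjusted p = 0.16) and without the libraries that stand apart (adjusted p = 0.15), and so was called under 2 of 11 alternatives. After 2iL withdrawal Nodal was not called at 24 h, at -0.40 ± 0.27 (edgeR adjusted p = 0.38). At 48 h Nodal was called at -0.92 ± 0.26 (edgeR adjusted p = 0.0071), though not without the second 0 h library (adjusted p = 0.082) or the first 48 h library (adjusted p = 0.071). The fall was called under each alternative from 60 h, with -1.78 ± 0.28 (edgeR adjusted p = 1.1e-05), and reached -4.15 ± 0.38 at 96 h (edgeR adjusted p = 3.5e-10), when 5.30% of the 0 h mean remained. Ordered by group mean, Nodal ran from 67.4 CPM in 2i at 0 h to 2.34 CPM in 2iL at 96 h, and in 6 of the 15 pairs of neighbours in that order the libraries did not overlap.

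Tdgf1 (ENSMUSG00000032494, chromosome 9, 110939603 to 110946158, minus strand) encodes the membrane-anchored coreceptor that Nodal needs to engage its receptors. Tdgf1 in the 2iL course had 144 and 145 CPM at 0 h, 186 and 243 CPM at 24 h, 146 CPM at 36 h, 98.6 and 138 CPM at 48 h, 54.8 and 53.3 CPM at 60 h, 7.35 and 13.9 CPM at 72 h, 2.08 and 4.31 CPM at 84 h, and 1.95 and 1.17 CPM at 96 h. Tdgf1 in the 2i course had 111 and 91.8 CPM at 0 h, 81.7 and 70.6 CPM at 12 h, 21.1 and 14.7 CPM at 24 h, 2.89 and 2.94 CPM at 36 h, 2.58 and 0.938 CPM at 48 h, 3.90 and 2.00 CPM at 60 h, 1.23 and 3.72 CPM at 72 h, and 1.26 and 0 CPM at 84 h. Both 2iL libraries at 24 h lay above 0 h, both at 48 h lay below it, and all later ones were far lower. In the 2i course the drop came between 12 and 36 h.

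After 2i withdrawal the log2 change of Tdgf1 was -0.41 ± 0.24 at 12 h, which was not called (edgeR adjusted p = 0.31). It was -2.52 ± 0.27 at 24 h (edgeR adjusted p = 2.6e-08) and -5.09 ± 0.39 at 36 h (edgeR adjusted p = 2.1e-11), when 2.88% of the 0 h mean was left. At 84 h Tdgf1 had 2 counts, against 446 at 0 h, so the 0 h level was 177 times the 84 h level (95% counting interval 48.8 to 1468). After 2iL withdrawal the change was 0.57 ± 0.23 at 24 h (edgeR adjusted p = 0.10) and -0.29 ± 0.22 at 48 h (edgeR adjusted p = 0.35), neither of them called. Tdgf1 then fell, with -1.42 ± 0.24 at 60 h (edgeR adjusted p = 2.4e-05), -3.79 ± 0.29 at 72 h (edgeR adjusted p = 9.4e-12) and -6.56 ± 0.40 at 96 h (edgeR adjusted p = 5.3e-14). The step from 60 to 72 h alone was -2.38 ± 0.30 (edgeR adjusted p = 1.8e-05; 1.8% of all genes).

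Acvr2b (ENSMUSG00000061393, chromosome 9, 119402118 to 119434995, plus strand) encodes a type II receptor for activins and Nodal. Acvr2b in the 2iL course had 92.8 and 78.4 CPM at 0 h, 49.5 and 64.4 CPM at 24 h, 78.1 CPM at 36 h, 90.0 and 91.0 CPM at 48 h, 127 and 129 CPM at 60 h, 135 and 128 CPM at 72 h, 166 and 126 CPM at 84 h, and 195 and 211 CPM at 96 h. Acvr2b in the 2i course had 90.1 and 82.4 CPM at 0 h, 71.4 and 70.6 CPM at 12 h, 82.8 and 98.8 CPM at 24 h, 98.7 and 74.3 CPM at 36 h, 131 and 153 CPM at 48 h, 148 and 138 CPM at 60 h, 179 and 175 CPM at 72 h, and 205 and 156 CPM at 84 h. From 60 h in the 2iL course and from 48 h in the 2i course each library lay above both 0 h libraries. The rise reached 1.24 ± 0.18 at 96 h in the 2iL course, 237% of the 0 h mean (edgeR adjusted p = 1.1e-06), and 1.06 ± 0.18 at 84 h in the 2i course, 209% of it (edgeR adjusted p = 2.1e-05). The change of Acvr2b since 0 h was not called different between courses at the shared times taken jointly (edgeR adjusted p = 0.24). Its level was called lower after 2iL than after 2i withdrawal at 24 h (called under 9 of 11 alternatives) and at 48 h (8 of 11). An early dip at 24 h of 2iL withdrawal, -0.60 ± 0.20 (edgeR adjusted p = 0.045), was not called without the first 0 h library (adjusted p = 0.28), without the first 24 h library (adjusted p = 0.26) or without the second (adjusted p = 0.056), and was called under 5 of 11 alternatives.

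Acvr1b (ENSMUSG00000000532, chromosome 15, 101174067 to 101213684, plus strand) encodes the type I receptor ALK4 and was near the counting limit, with 3 to 20 counts per library and 1.43 to 8.79 CPM. It was not called over either course (edgeR adjusted p = 0.86 after 2i withdrawal and 0.17 after 2iL withdrawal). The 1 time called, 48 h of 2iL withdrawal at -1.64 ± 0.56 (edgeR adjusted p = 0.028), was lost without the first 48 h library (adjusted p = 0.18), the first 0 h library (adjusted p = 0.15) or the second (adjusted p = 0.060), and was called under 6 of 11 alternatives. At this depth no statement on Acvr1b is firmer than its range.

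Smad3 (ENSMUSG00000032402, chromosome 9, 63646767 to 63757994, minus strand) encodes a receptor-activated Smad. Smad3 in the 2iL course had 13.7 and 15.5 CPM at 0 h, 10.8 and 6.83 CPM at 24 h, 5.0 CPM at 36 h, 3.30 and 4.41 CPM at 48 h, 6.01 and 6.15 CPM at 60 h, 6.94 and 6.16 CPM at 72 h, 13.5 and 5.93 CPM at 84 h, and 11.7 and 21.8 CPM at 96 h. Smad3 in the 2i course had 11.9 and 6.59 CPM at 0 h, 7.55 and 13.7 CPM at 12 h, 8.33 and 8.59 CPM at 24 h, 9.24 and 4.42 CPM at 36 h, 3.23 and 8.45 CPM at 48 h, 15.6 and 8.0 CPM at 60 h, 20.3 and 24.6 CPM at 72 h, and 27.8 and 24.7 CPM at 84 h. The 2iL values dipped in mid-course and overlapped 0 h again at 96 h, and the 2i values stood above 0 h at 72 and 84 h. The dip was -1.92 ± 0.45 at 48 h of 2iL withdrawal (edgeR adjusted p = 0.0015). The late gain was 1.45 ± 0.39 at 84 h of 2i withdrawal (edgeR adjusted p = 0.0045) and was not called without the second 0 h library, which left 1.13 (adjusted p = 0.066).

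Skil (ENSMUSG00000027660, chromosome 3, 31095058 to 31122577, plus strand) encodes SnoN, a corepressor that binds Smad proteins and is degraded when the pathway is active. Skil in the 2iL course had 25 and 25.7 CPM at 0 h, 19.3 and 11.7 CPM at 24 h, 56.2 CPM at 36 h, 96.9 and 88.6 CPM at 48 h, 125 and 104 CPM at 60 h, 81.2 and 90.9 CPM at 72 h, 76.6 and 93.2 CPM at 84 h, and 41.6 and 42.0 CPM at 96 h. Skil in the 2i course had 93.7 and 62.6 CPM at 0 h, 71.4 and 52.9 CPM at 12 h, 81.8 and 82.3 CPM at 24 h, 105 and 86.1 CPM at 36 h, 83.4 and 53.0 CPM at 48 h, 46.0 and 46.5 CPM at 60 h, 21.5 and 19.3 CPM at 72 h, and 17.0 and 26.8 CPM at 84 h. Skil thus peaked at 60 h after 2iL withdrawal, while the 2i libraries overlapped 0 h up to 48 h and lay below it from 60 h. In the 2iL course the log2 change was 1.15 ± 0.28 at 36 h (1 library; edgeR adjusted p = 0.0059) and 2.18 ± 0.23 at 60 h, 452% of the 0 h mean (edgeR adjusted p = 1.3e-08). The decline from 84 to 96 h was -1.02 ± 0.23 (edgeR adjusted p = 0.0083; 4.25% of all genes), which was not called without the second 84 h library (-0.86, adjusted p = 0.10) or the second 96 h library (-1.03, adjusted p = 0.060). After 2i withdrawal it was -1.94 ± 0.26 at 72 h, 26.1% of the 0 h mean (edgeR adjusted p = 7.7e-07), and -1.83 ± 0.25 at 84 h (edgeR adjusted p = 9.8e-07).

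**Figure D2:**
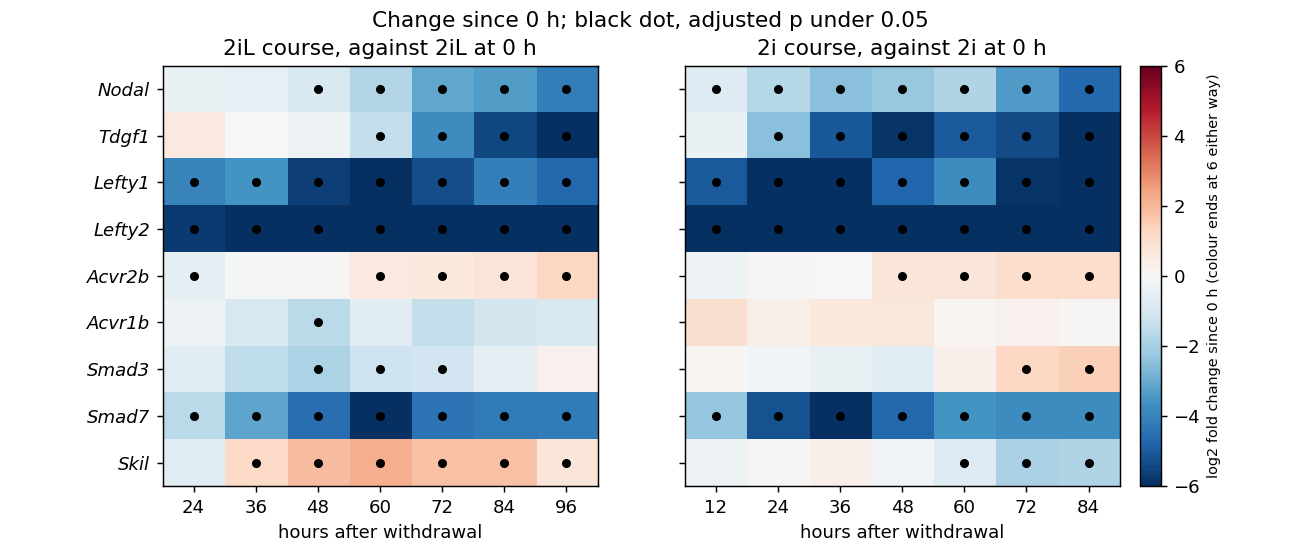
Fitted log2 change of each gene since 0 h of its own course (colour, ending at 6 on either side) at each time (columns, hours after withdrawal), 2iL course and 2i course in separate panels; a black dot marks an adjusted p under 0.05. Lefty2 is at -7.07 at 12 h of 2i withdrawal and -5.76 at 24 h of 2iL withdrawal, and Skil has positive values from 36 h in the 2iL course and negative called ones late in the 2i course.

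Before withdrawal 2 of the 9 genes differed between 2iL and 2i, both lower in 2iL, where 3.75% of all genes were lower and 4.24% higher (8% in all). Skil had 25 and 25.7 CPM in 2iL, against 93.7 and 62.6 CPM in 2i, a log2 difference of -1.63 ± 0.24 (edgeR adjusted p = 1.3e-05). Lefty1 had 74.5 and 93.5 CPM in 2iL, against 218 and 180.2 CPM in 2i, a log2 difference of -1.25 ± 0.27 (edgeR adjusted p = 0.0023), which was not called without the first 2iL library (-1.09, adjusted p = 0.087) or without the first 2i library (-1.10, adjusted p = 0.069). Neither gene's libraries overlapped between media, but nor did those of Nodal, Tdgf1, Lefty2, Acvr1b and Smad3. The share of all genes without overlap was not counted, so this trait does not set Skil and Lefty1 apart. Nodal at -0.62 ± 0.24 (edgeR adjusted p = 0.13), Tdgf1 at 0.51 ± 0.23 (edgeR adjusted p = 0.20) and Lefty2 at -0.36 ± 0.19 (edgeR adjusted p = 0.31) were not called. Smad7 and Acvr2b overlapped between the media. With the 4 libraries of this comparison alone 6 genes were called, with Nodal, Tdgf1, Lefty2 and Acvr1b added. The share of all genes called in that fit is not given here, so the 6 cannot be read as particular to the members.

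At the shared times the level differed between courses for 6 of the 9 genes at 24 h (10.6% of all genes), 4 at 36 h (7.32%), 3 at 48 h (17.3%), 4 at 60 h (16.3%), 3 at 72 h (12.2%) and 2 at 84 h (14.5%). The change since 0 h differed for 4 at 24 h (3.08%), 4 at 36 h (3.13%), 3 at 48 h (9.17%), 4 at 60 h (10.3%), 2 at 72 h (9.8%) and 3 at 84 h (11.3%). The members' share thus stood furthest above that of all genes at 24 and 36 h.

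The widest gap between courses was that of Tdgf1, which was higher after 2iL withdrawal. At 36 h Tdgf1 had 146 CPM in the 2iL library, against 2.89 and 2.94 CPM in the 2i libraries, a log2 difference in level of 5.62 ± 0.41 (edgeR adjusted p = 9.7e-11). It was 3.60 ± 0.27 at 24 h (edgeR adjusted p = 4.4e-11) and 4.14 ± 0.37 at 60 h (edgeR adjusted p = 1.8e-09). The change since 0 h differed by 5.11 ± 0.49 at 36 h (2iL change minus 2i change; edgeR adjusted p = 7.5e-08). At 84 h, with 12 counts in 2iL against 2 in 2i, the level ratio was 5.48 (95% counting interval 1.22 to 50.4) and the difference was not called (edgeR adjusted p = 0.089).

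Nodal differed in the same direction but by less. Its change since 0 h was 2.02 ± 0.43 higher after 2iL than after 2i withdrawal at 36 h (edgeR adjusted p = 0.0049), though not called without the first 2i 36 h library (1.84, adjusted p = 0.054). At 24 h the difference of 1.29 ± 0.38 was not called (edgeR adjusted p = 0.057). Jointly over the shared times the courses differed for Nodal (edgeR adjusted p = 0.0029) and for Tdgf1 (edgeR adjusted p = 8e-10).

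Lefty1, Lefty2 and Smad7 were higher after 2iL withdrawal at 24 h, and Lefty1 was lower later. Lefty1 at 24 h had 3.09 and 7.81 CPM after 2iL withdrawal, against 1.47 and 0.358 CPM after 2i withdrawal. That difference in level was called under 6 of 10 alternatives. At 24 h Lefty2 had 10.8 and 14.6 CPM after 2iL withdrawal, against 0.490 and 2.15 CPM after 2i withdrawal, a log2 difference in level of 3.07 ± 0.53 (edgeR adjusted p = 0.00013; 4.5 without the second 2i 24 h library). Smad7 at 24 h had 29.4 and 19.5 CPM after 2iL withdrawal, against 3.92 and 0.716 CPM after 2i withdrawal, a log2 difference in level of 3.52 ± 0.48 (edgeR adjusted p = 4.2e-06; 5.0 without the first 2i 24 h library and 2.63 without the second). At 36 h Lefty1 had 18 counts in the 2iL library, against 1 count after 2i withdrawal, a level ratio of 21.4 (95% counting interval 3.38 to 892). At 60 h the order was the other way round for Lefty1, with 0.376 and 2.05 CPM after 2iL withdrawal, against 13 and 16 CPM after 2i withdrawal. That log2 difference in level was -3.65 ± 0.60 (edgeR adjusted p = 5.4e-05; -2.77 without the first 2iL 60 h library and -5.06 without the second). Smad7 at 60 h was lower after 2iL withdrawal by the same test, at -2.53 ± 0.64 (edgeR adjusted p = 0.0062), but was not called without the first 2iL 60 h library (adjusted p = 0.064) or the second 2i 60 h library (adjusted p = 0.087). The joint differences were called for Lefty1 (edgeR adjusted p = 1.5e-05), Lefty2 (edgeR adjusted p = 0.00024) and Smad7 (edgeR adjusted p = 4.2e-06).

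Skil reversed its order between courses. At 24 h Skil had 19.3 and 11.7 CPM after 2iL withdrawal, against 81.8 and 82.3 CPM after 2i withdrawal, a log2 difference in level of -2.37 ± 0.28 (edgeR adjusted p = 4.1e-07). At 72 h Skil had 81.2 and 90.9 CPM after 2iL withdrawal, against 21.5 and 19.3 CPM after 2i withdrawal, a log2 difference in level of 2.07 ± 0.26 (edgeR adjusted p = 1.1e-06). Libraries did not overlap at either time. The change since 0 h of Skil differed by 3.70 ± 0.35 at 72 h (edgeR adjusted p = 5.2e-09), and that of Smad3 by -2.37 ± 0.59 at the same time (edgeR adjusted p = 0.0075).

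**Figure D3:**
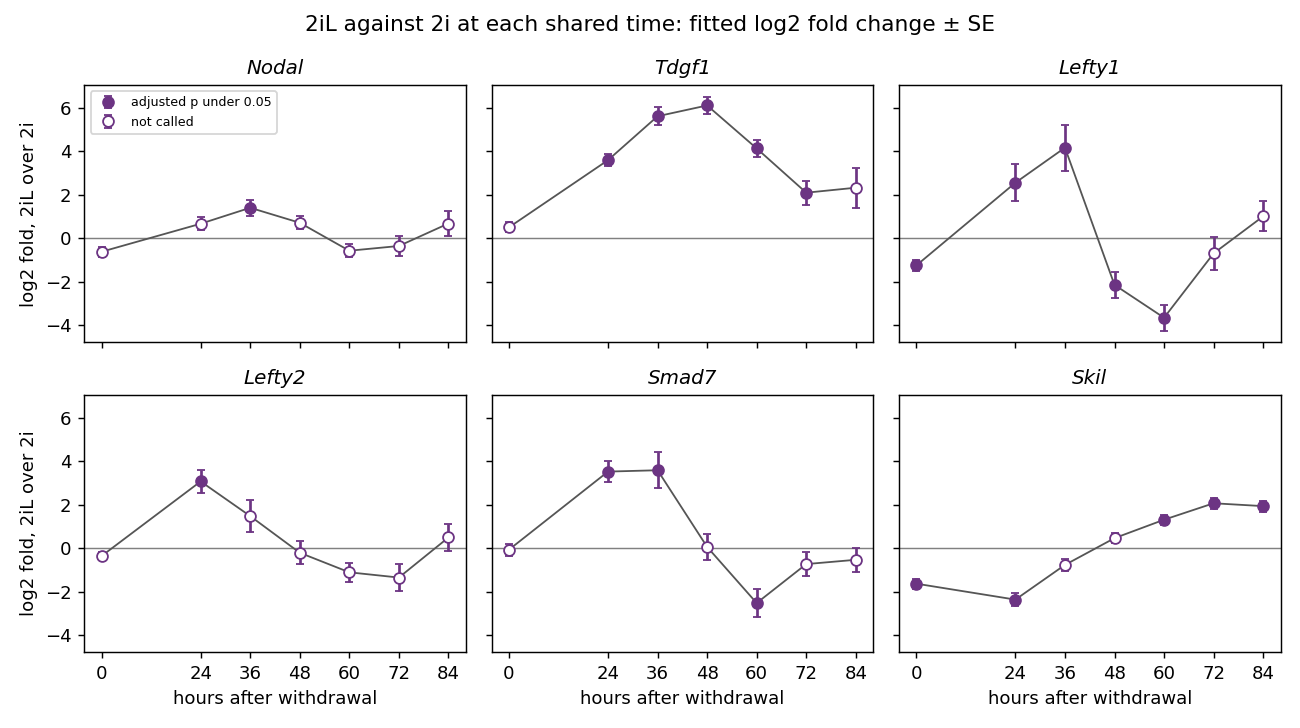
Fitted log2 difference in level, 2iL over 2i, at 0 h and at each shared time after withdrawal (hours), with bars of ± SE, for 6 of the 7 genes that differed jointly between courses (Smad3 is not drawn). Tdgf1 stands above 0 from 24 h with 5.62 at 36 h, Smad7 is at 3.52 at 24 h, Lefty1 is at -3.65 at 60 h, and Skil goes over from -2.37 at 24 h to 2.07 at 72 h.

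Of 40 other genes of the activin, Nodal and TGF-beta branch, from a list of ligands, convertases, receptors, Smads with partners, inhibitors and targets, 28 were tested. Over a whole course, 19 of the 28 changed after 2i withdrawal and 17 after 2iL withdrawal, and 12 differed between courses, beside 52.3%, 56.5% and 22.5% of all genes. At 12 h of 2i withdrawal 1 was higher and 2 were lower (10.8% of all genes were called), and at 24 h of 2iL withdrawal 2 were higher and 2 lower (11.6%). Leaving out single libraries gave 1 call of the 28 at 12 h of 2i withdrawal, and DESeq2 gave 1 there and 2 at 24 h of 2iL withdrawal. At 84 h of 2i withdrawal 9 were higher and 6 lower, 33.2% of all genes being called, and leaving out single libraries gave 7 to 10 calls in all, with 7 without the first 84 h library and 8 without either 0 h library. At 96 h of 2iL withdrawal 7 were higher and 4 lower (39.5%). Foxh1, the partner of activated Smads, was not tested, with 18 counts over the 31 libraries, nor were Cer1, a secreted Nodal antagonist, with 2 counts, and Gdf1, a Nodal-related ligand, with 0.

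Gdf3, a Nodal-related ligand that also signals through Tdgf1, fell in both courses. Gdf3 averaged 6.25 ± 2.77 CPM at 84 h of 2i withdrawal and 111 ± 10.2 CPM at 0 h (SD, n = 2 each), a log2 change of -4.16 (edgeR adjusted p = 1.1e-13). It averaged 22.3 ± 2.41 CPM at 96 h of 2iL withdrawal and 105 ± 13.1 CPM at 0 h, a log2 change of -2.25 (edgeR adjusted p = 4.1e-10). Pmepa1, a target that restrains the pathway, also fell in both, by 2.11 on the log2 scale at 84 h of 2i withdrawal (edgeR adjusted p = 1.9e-06) and by 2.63 at 96 h of 2iL withdrawal (edgeR adjusted p = 1.1e-08).

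The activin antagonist follistatin moved the other way. Fst averaged 67.1 ± 17.6 CPM at 84 h of 2i withdrawal and 11.7 ± 1.35 CPM at 0 h, a log2 change of 2.52 (edgeR adjusted p = 1.2e-08), and it averaged 115 ± 8.25 CPM at 60 h. At 96 h of 2iL withdrawal Fst averaged 24.2 ± 4.83 CPM, against 8.79 ± 0.525 CPM at 0 h, a log2 change of 1.48 (edgeR adjusted p = 0.00023). Fstl1, a related secreted glycoprotein, rose at the first time sampled in both courses. It averaged 206 ± 19.9 CPM at 12 h of 2i withdrawal and 90.6 ± 7.74 CPM at 0 h, a log2 change of 1.19 (edgeR adjusted p = 0.00014). At 24 h of 2iL withdrawal Fstl1 averaged 133 ± 48.6 CPM, against 26.2 ± 1.76 CPM at 0 h, a log2 change of 2.33 (edgeR adjusted p = 1.3e-08), and at 48 h it averaged 26.9 ± 1.15 CPM. Fstl1 was higher again at 96 h of 2iL withdrawal, at 64.2 ± 0.0824 CPM, a log2 change of 1.29 from 0 h (edgeR adjusted p = 3.8e-05).

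The convertases that can cleave the Nodal precursor did not move together. Furin averaged 11 ± 3.08 CPM at 24 h of 2iL withdrawal and 40.5 ± 6.63 CPM at 0 h, a log2 change of -1.85 (edgeR adjusted p = 0.00019), and was back at 59.1 ± 2.74 CPM at 96 h. Pcsk6 averaged 2.14 ± 0.273 CPM at 96 h of 2iL withdrawal and 26.7 ± 5.42 CPM at 0 h, a log2 change of -3.57 (edgeR adjusted p = 5.1e-08). Smad4, the shared partner of the receptor-activated Smads, averaged 98.4 ± 10.9 CPM at 84 h of 2i withdrawal and 55.7 ± 0.354 CPM at 0 h, a log2 change of 0.82 (edgeR adjusted p = 0.00079). Trim33, which binds activated Smads, changed jointly over both courses (edgeR adjusted p = 1e-07 in 2i and 1.1e-06 in 2iL), with its highest means at 36 h of 2i withdrawal (147 ± 7.19 CPM) and at 60 h of 2iL withdrawal (136 ± 4.08 CPM). Tgfb2, a TGF-beta ligand, and Smurf2, a ubiquitin ligase of the pathway, rose at 96 h of 2iL withdrawal by 2.16 (edgeR adjusted p = 0.0013) and 1.35 (edgeR adjusted p = 0.00093) on the log2 scale. Among targets in the embryo, Eomes, a T-box factor of mesendoderm, changed jointly over the 2i course (edgeR adjusted p = 1.9e-05), with 18.5 ± 2.75 CPM at 60 h.

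**Figure D4:**
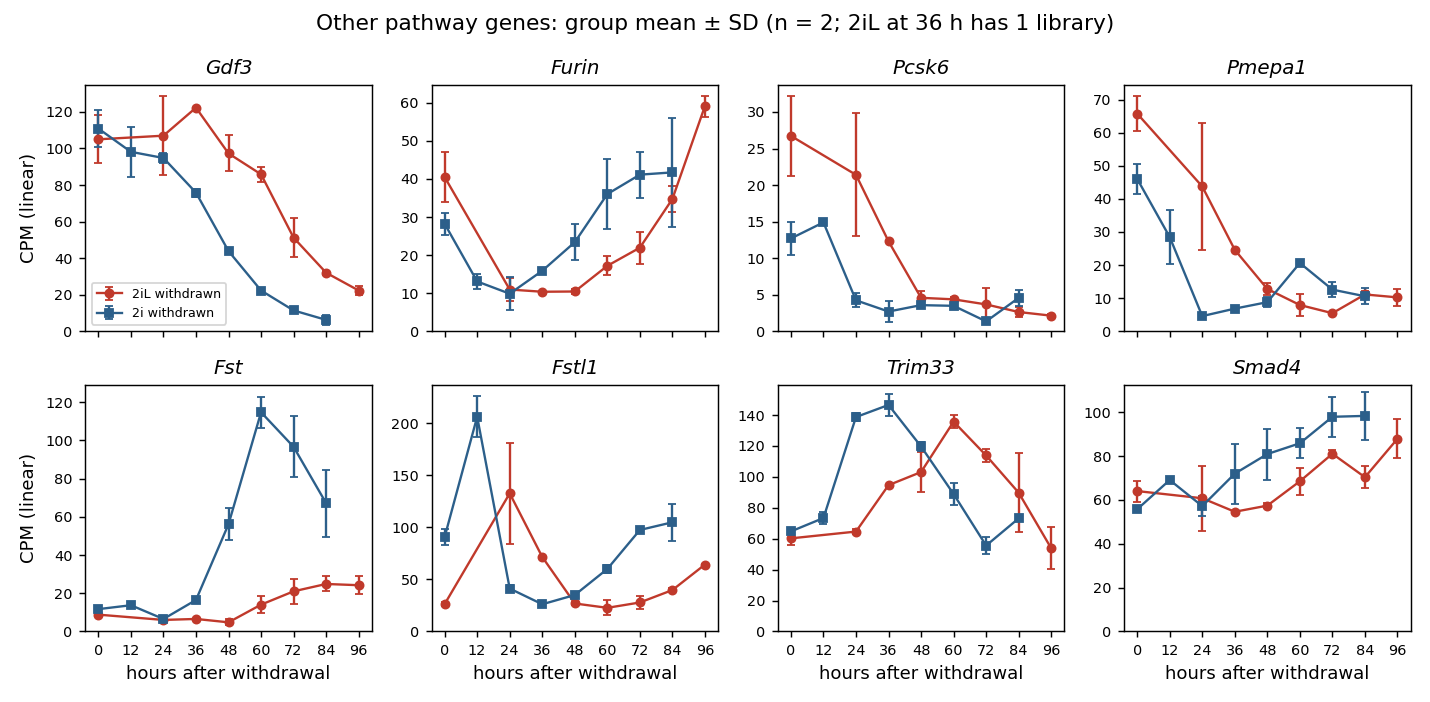
Level (CPM, linear axis from 0) of other genes of the pathway against hours after withdrawal in the 2iL and the 2i course; points are group means and bars ± SD of 2 libraries, with 1 library in 2iL at 36 h. Gdf3 is down to 22.3 CPM at the last 2iL time and 6.25 CPM at the last 2i time, and Fst reaches 115 CPM at 60 h of 2i withdrawal.

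Across the 16 group means of log2 CPM, which share libraries and depth between genes, the members fell into a few shapes, given here as descriptions. Lefty1 and Lefty2 had a Pearson r of 0.93, Lefty1 and Smad7 had 0.88, and Lefty2 and Smad7 had 0.89. Nodal and Tdgf1 had 0.81 over all groups. Among 7735 other genes with a mean of at least 10 CPM, the 3 most like Nodal were Pced1b, Klf2 and Slc30a2, each with r = 0.94. Those most like Tdgf1 were Rest (r = 0.98), Ifitm3 (0.97) and Atp9a (0.97). For Smad7 they were Ckb (0.96), Nanog (0.96) and Tbx3 (0.94). For Lefty2 they were Fam49b (0.93), Acads (0.92) and Zbtb44 (0.92), and for Lefty1 they were Atp2c1 (0.89), Gmeb1 (0.87) and Nfkbia (0.87). Among these, Nanog, Klf2 and Tbx3 are known transcription factors of the naive pluripotent state.

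Markers of other cell types moved in the same libraries. Early neural markers, 6 genes, summed to 574 to 648 CPM at 84 h of 2i withdrawal, against 25.8 to 36.1 CPM at 0 h, with none at 0 in either group. At 96 h of 2iL withdrawal they summed to 194 to 251 CPM. Fibroblast markers, 6 genes, summed to 15.8 to 27.9 CPM at 84 h of 2i withdrawal, against 1.59 to 4.95 CPM at 0 h. Postn and Lum were at 0 at 0 h, and of 3 genes tested 3 were higher at 84 h. Endoderm markers, 8 genes, summed to 25.3 to 25.7 CPM at 84 h of 2i withdrawal, against 11.1 to 13.2 CPM at 0 h. In the 2iL course they fell, to 15.6 to 21.4 CPM at 96 h from 45.2 to 49.1 CPM at 0 h. Lama1 carried most of that 0 h sum, with 43.3 CPM. The part of these markers in the late values of the 9 genes was not tested.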

How the data were processed

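Poly(A) RNA of E14 cells was read from transcript 3′ ends in 32 libraries, 2 for each of 16 groups taken from the labels. The authors deposited raw counts per Ensembl gene and library, made with bcl2fastq, STAR 2.6.0a and HTSeq on mm10, per the submitters' processing notes. The annotation and strand setting of the counting are not given in the sources used here. Names and positions came from GENCODE M21, which names 31011 of 31053 genes. Reads outside genes (23.4% to 55.4%) or ambiguous between genes (0.218% to 0.436%) were left out, so a gene with a misplaced 3′ end can be undercounted.

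Total counts were 1122648 to 3438514 in the 31 libraries used, and 7298 in the one left out. A single edgeR 4.0.16 quasi-likelihood fit (R 4.3.3, limma 3.58.1) with TMM scaling, filterByExpr and a coefficient per group covered 12556 genes with 15 residual degrees of freedom and gave 42 comparisons. It was tested on simulated data. Standard errors are the log2 change over the square root of F. Counting intervals are exact 95% intervals from Python 3.11.15 and scipy 1.17.1.

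Members and lists were chosen with earlier results of these data known. Named genes were the 9 members, other listed pathway genes called in at least 1 of 8 comparisons (those whose calls held under the alternatives are given with values), and for 5 members the 3 genes of highest correlation. Alternatives were RLE scaling, no filter, DESeq2 1.42.0, a replicate block, own libraries only, libraries that stand apart left out, and each library left out.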

Additional observations from a re-analysis of the deposited data

Results flagged for a closer look

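For 7 of the 9 genes the change after 2iL withdrawal differed from the change after 2i withdrawal when the shared times were tested jointly (edgeR's quasi-likelihood interaction test, Benjamini-Hochberg adjustment over 12556 genes, 22.5% of which differed). The adjusted p was 2.46e-11 for Skil, 8.02e-10 for Tdgf1, 4.17e-06 for Smad7, 1.54e-05 for Lefty1, 0.000237 for Lefty2, 0.00288 for Nodal and 0.0333 for Smad3. The value for Smad3 passed 0.05 narrowly. It was 0.071 or 0.090 without the first or the second 2iL 0 h library, 0.11 without the second 2i 0 h library, 0.054 or 0.068 without the first or the second 2iL 72 h library, 0.065 without the second 2i 72 h library and 0.052 without the first 2i 84 h library. The courses differ in LIF, which the 2iL cells had before 0 h and lost at withdrawal. Growth with LIF beforehand and its later loss cannot be told apart.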

How the results depend on the processing

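Of 378 member values, 170 were called, 124 of them under every alternative that gave a value and 46 not under at least 1, and no called value changed sign. Of 85 called values of other pathway genes, 52 were called under every alternative and none changed sign. The count of members called between 2iL and 2i at 0 h, 2, depended on the processing: it was 4 without the libraries that an earlier analysis found to stand apart (the first 2iL libraries of 48 and 96 h, the second of 84 h, and the second 2i library of 12 h), with Nodal and Tdgf1 added, and 6 in a fit of the 4 libraries compared, and leaving out single libraries gave 1 to 2. The cause was not tested. The share of all genes called is not given for the alternatives, so their counts of members cannot be set beside it. Leaving out single libraries gave 8 members called over the 2i course, 8 over the 2iL course, 6 to 7 for the difference between courses, 3 at 12 h of 2i withdrawal, 3 to 4 at 24 h of 2iL withdrawal, 7 to 8 at 84 h of 2i withdrawal and 6 to 7 at 96 h of 2iL withdrawal. No fit of own libraries alone was made for the difference between courses.

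The replicate block called 2 members at 0 h, 8 over each course, 7 for the difference, 3 at 12 h of 2i withdrawal, 4 at 24 h of 2iL withdrawal, 8 at 84 h and 7 at 96 h. Nodal at 12 h of 2i withdrawal was lost under the block (adjusted p = 0.052). Over 105 pairs of groups the deviations of same-numbered libraries had correlations of -0.385 to 0.422 (median 0.006), 10 of them over 0.1. No pairing common to all groups showed in these values. They cannot exclude pairing or batches among some of the groups. Depth limits Acvr1b, and the lowest Lefty1, Smad7 and Tdgf1 values, which rest on 1 to 3 counts in a group.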
